A study of Mus musculus with 4 samples.

Results

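Intercalated cells of the kidney collecting duct, the acid- and base-secreting cells of the distal nephron, were selected on measured transcript counts in single-cell libraries of aged mouse kidney, so what the selecting genes show in them is a description. A barcode was kept when it held at least 500 unique transcript counts (UMIs) and 300 genes and at most 50% of its UMIs were mitochondrial. It was taken as an intercalated cell when Atp6v1g3, Atp6v0d2 and Foxi1 together gave at least 3 UMIs with at least 1 of Atp6v1g3, Ptprc gave none, Lrp2 and Slc34a1 together gave at most 3 and Slc12a1 at most 4. In all, 227 of 50605 kept barcodes met the rule. Cells with more UMIs of Slc4a1 than of Slc26a4 were called type A (76 cells), those with more Slc26a4 type B (91 cells), and the 60 cells with neither gene were left untyped.

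The kidneys came from C57BL/6 male mice aged 19 months that had received either the small molecule BPTES, an inhibitor of glutamine use, or its vehicle DMSO for 1 month. Each treatment had 2 libraries, named here BPTES 1, BPTES 2, DMSO 1 and DMSO 2. The minced tissue was digested with liberase, cells were sorted on CD45, and each library mixed 20000 CD45-negative with 9000 CD45-positive cells of a single tissue, so a leukocyte-rich mixture was sequenced. The labels do not say whether the samples of a treatment were separate animals, so p-values measure the spread between these samples, which may be technical.

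Intercalated cells pump protons with a vacuolar ATPase whose kidney isoforms they assemble at the apical or basolateral membrane. Type A cells secrete acid and return bicarbonate to the blood through the anion exchanger Slc4a1, whereas type B cells secrete bicarbonate through pendrin, Slc26a4. The forkhead factor Foxi1 is required for both types and drives genes of the proton pump, and Notch signalling separates them from the neighbouring principal cells, which take up sodium and water. Ammonia, which the kidney makes largely from glutamine, crosses these cells through the Rh channels Rhbg and Rhcg on its way to the urine.

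Promoters of Foxi1 and of proton pump genes are shown because the pump genes and their forkhead regulator define the cells. Each is the 250 bases upstream of the RefSeq start site in build GRCm38.p6, printed 5′ to 3′ on the strand of the gene. Capitals mark GTAAACA, the forkhead core motif searched on both strands, which appears as its reverse complement TGTTTAC. Foxi1 lies at chr11:34208090-34208339 (minus strand), Atp6v1g3 at chr1:138273488-138273737 (plus strand) and Atp6v1b1 at chr6:83742767-83743016 (plus strand).
Foxi1: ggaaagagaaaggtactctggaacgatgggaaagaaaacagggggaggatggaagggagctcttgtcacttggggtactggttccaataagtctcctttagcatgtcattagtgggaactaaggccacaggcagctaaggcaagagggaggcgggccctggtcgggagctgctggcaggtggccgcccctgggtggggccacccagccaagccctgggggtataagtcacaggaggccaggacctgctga
Atp6v1g3: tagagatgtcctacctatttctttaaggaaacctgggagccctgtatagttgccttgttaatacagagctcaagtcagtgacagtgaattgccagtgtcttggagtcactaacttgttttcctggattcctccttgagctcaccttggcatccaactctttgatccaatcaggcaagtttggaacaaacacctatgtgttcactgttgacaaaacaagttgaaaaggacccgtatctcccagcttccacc
Atp6v1b1: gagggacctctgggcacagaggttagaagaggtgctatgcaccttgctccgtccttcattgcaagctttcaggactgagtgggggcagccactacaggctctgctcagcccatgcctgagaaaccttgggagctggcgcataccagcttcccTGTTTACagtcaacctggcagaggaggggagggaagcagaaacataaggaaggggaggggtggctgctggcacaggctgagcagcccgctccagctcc
The motif began 98 bases before the start site of Atp6v1b1 (position -98) and was absent from the other windows shown. Among 23 intercalated cell genes looked up, 17 had a window, with 21 windows in all. Atp6v1b1 was the 1 gene of these with the motif, in 1 of the 21 windows. Of all 32851 promoter windows in the table, 3.17% held it (1040 windows). A match is a run of letters, not a bound site.

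The cells numbered 62 in BPTES 1, 35 in BPTES 2, 45 in DMSO 1 and 85 in DMSO 2, with median depths of 22376.5, 16188, 16874 and 27709 UMIs. Their summed counts, the basis of every level below, were 1577645, 838944, 1105873 and 2279280 UMIs. Whole libraries held between 249881074 and 297947661 UMIs, and any pair of libraries shared 90 to 114 barcode sequences. Near the edge of the rule, 12 cells entered with a sum of 3 for the selecting genes and 23 barcodes stayed out with a sum of 2. A further 115 barcodes had the sum but held Ptprc, 33 held too much Lrp2 and Slc34a1, 1 too much Slc12a1, and 35 exceeded the mitochondrial limit.

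Detection of the selecting genes was set by the rule and is given as a description. After thinning every cell to 2000 UMIs, 91.4% of intercalated cells (198 deep enough, 29 too shallow) still had Atp6v1g3, compared with 0.222% of proximal tubule and 0.158% of endothelial cells. Without thinning the shares were 100% (fixed by the rule), 1.02% and 0.708%, at median depths of 25302, 18046 and 11084 UMIs. Foxi1, which counted toward the selecting sum but which a cell could lack and still enter, was seen in 78.4% of intercalated cells (46.5% thinned), in 0.224% of proximal tubule cells (0.0672% thinned) and in no endothelial cell. Of the 227 cells, 49 held no Foxi1 and 18 no Atp6v0d2. A doublet caller marked 10 of them, 6 in BPTES 1 and 4 in DMSO 2.

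The types were set by Slc4a1 and Slc26a4, so their separation on these genes is a description. Of the 227 cells 7 held UMIs of both Slc4a1 and Slc26a4 and the 60 untyped cells neither, 45 of them with at least 2000 UMIs. Further, 14 typed cells rested on a lead of 1 UMI and 8 on a lead of 2. Type A numbered 13, 10, 11 and 42 cells and type B 33, 17, 24 and 17 cells in BPTES 1, BPTES 2, DMSO 1 and DMSO 2. The scatter of cells by both transporters shows points along either axis and few between them.

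**Figure D1:**
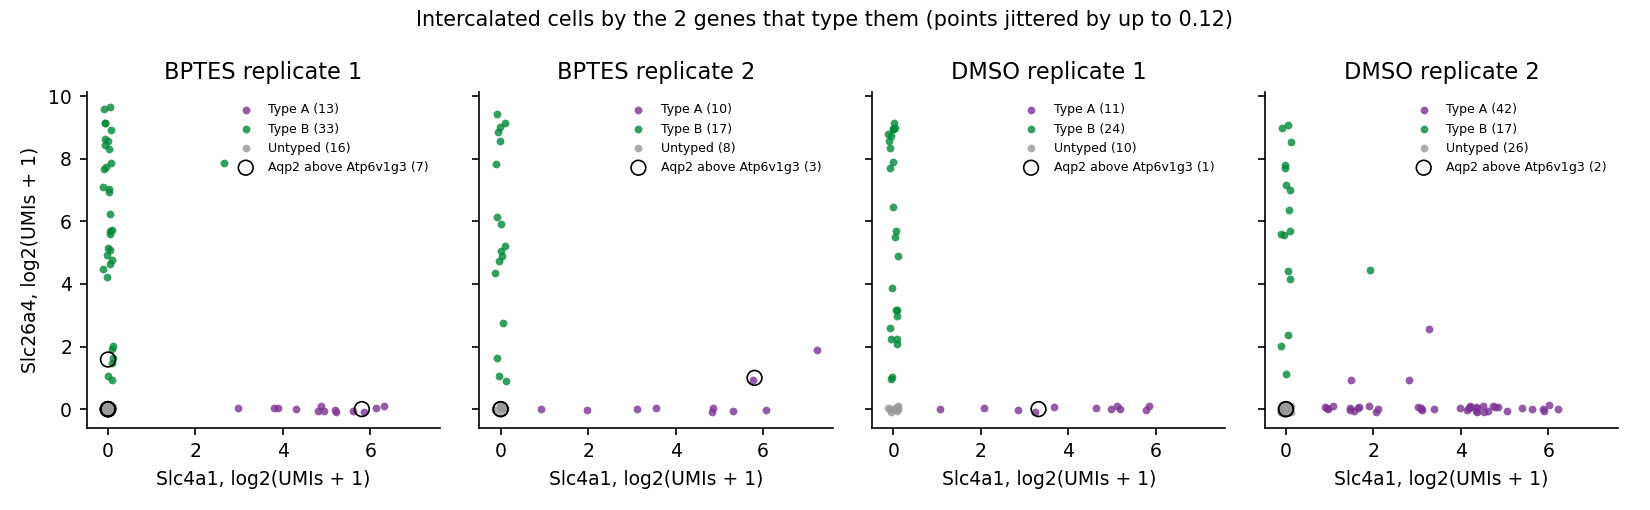
Each point is an intercalated cell, placed by its log2(UMIs + 1) of Slc4a1 (x axis) and Slc26a4 (y axis), with 1 panel per library; purple is type A, green type B, grey untyped, and black rings mark the 13 cells with more Aqp2 than Atp6v1g3. Points lie along the axes, 7 cells hold both genes, and DMSO 2 has the most type A cells (42).

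Other genes followed the split that the transporters made. The comparison has no test because the same cells were divided by it, and levels are CPM, the UMIs of a gene scaled to the same total in every sum. The transcription factor Dmrt2 averaged 301 CPM in type A sums (252 to 382 across the 4 libraries) and 1.63 CPM in type B. At the level of cells, 71 of 76 type A cells and 2 of 91 type B cells held it. The vesicular channel Aqp6 averaged 1266 CPM in type A and 52.5 CPM in type B, where BPTES 2 stood apart with 152 CPM. The receptor tyrosine kinase Kit was present in 76 of 76 type A and 22 of 91 type B cells, and the adhesion receptor Adgrf5 in 76 of 76 and 40 of 91. The antimicrobial peptide gene Defb1 averaged 2905 CPM in type A and 216 CPM in type B.

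Type B cells had their own transcription factor, Hmx2, at 775 CPM against 0.66 CPM in type A, with 77 of 91 and 1 of 76 cells positive. Insrr, an insulin receptor relative known as a sensor of alkali, averaged 700 CPM (667 to 752 across libraries) against 3.99 CPM, in 75 of 91 and 4 of 76 cells. The Notch ligand Jag1 averaged 369 CPM in type B and 59.8 CPM in type A, and the calcium-sensing receptor gene Casr 104 and 6.16 CPM. The membrane carbonic anhydrase Car12 averaged 1782 CPM in type B and 390 CPM in type A. For all of these the libraries of the types did not overlap.

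Some genes listed as markers of a single type were shared. Slc4a9, a basolateral transporter counted among type B markers, was present in 76 of 91 type B cells and also in 73 of 76 type A cells, although its level was 2160 CPM in type B and 692 CPM in type A. The protease inhibitor Spink8 was found in 78 of 91 and 52 of 76 cells, at 928 and 173 CPM. Oxgr1, the receptor for 2-oxoglutarate, averaged 351 CPM in type A and 238 CPM in type B with overlapping libraries, against its place on the type B list. Avpr1a, a vasopressin receptor, also overlapped between the types (230 CPM in type A and 202 CPM in type B).

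**Figure D2:**
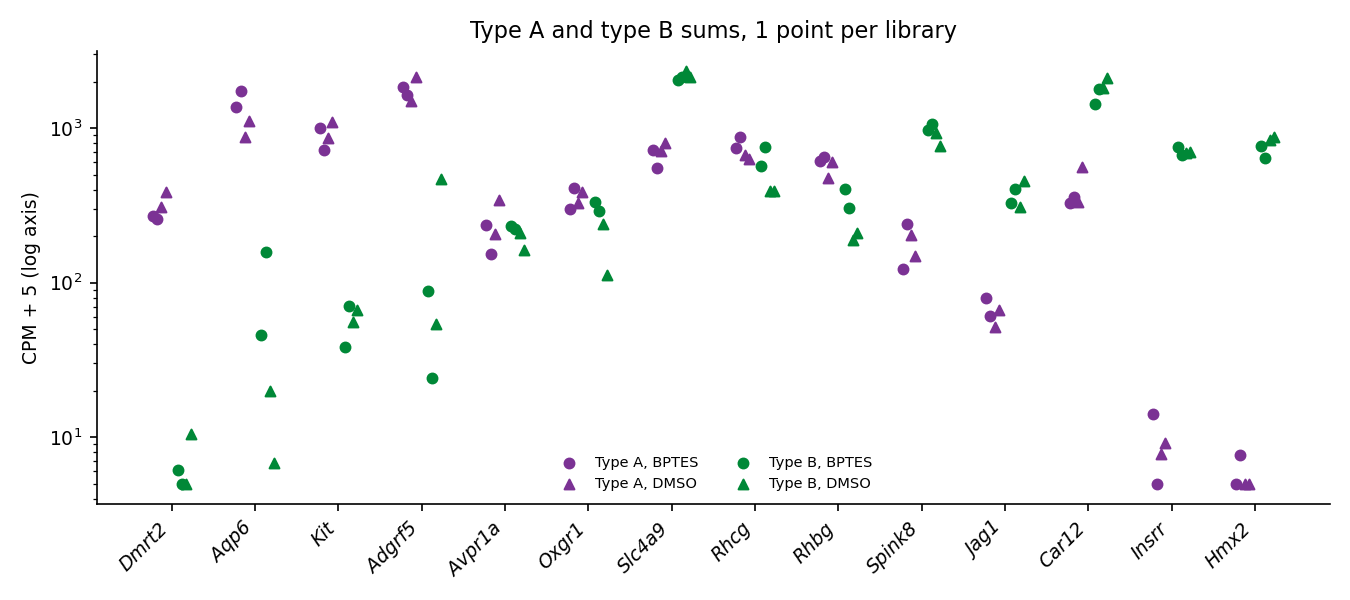
Level (CPM + 5, log axis) of 14 genes in the summed type A (purple) and type B (green) cells, 1 point per library, with circles for BPTES and triangles for DMSO. Dmrt2, Aqp6, Kit and Adgrf5 are higher in type A in all libraries and Hmx2, Insrr, Car12, Jag1, Spink8 and Slc4a9 in type B, while Avpr1a and Oxgr1 overlap.

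The proton pump was common to both types. Atp6v1b1 averaged 984 CPM in type A and 894 CPM in type B, Atp6v0a4 1293 and 1353 CPM, and Foxi1 422 and 431 CPM. Atp6v1c2, the kidney C subunit, was higher in type B in every library, at 1506 against 718 CPM. Both ammonia channels leaned to type A, with Rhbg at 580 CPM (469 to 649) against 271 CPM (184 to 396) and Rhcg at 727 against 524 CPM, the latter with overlapping libraries. Over all genes of at least 50 CPM in the higher type, 1607 had the same direction in the 4 libraries, of which 227 were at least 2-fold higher in type A and 134 in type B.

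By size of ratio, the 15 leading type A genes were Slc4a1, Dmrt2, Slc35f1, Gdf15, Pitpnc1, Calcr, Adra1a, Dscaml1, 2610016A17Rik, Aqp6, Nkain3, Kctd8, Fut8, Ifitm3 and Kit. Gdf15 and Ifitm3 had their place in this order from few cells. A single cell gave 253 of 254 Gdf15 UMIs in the intercalated cells of BPTES 2 and 212 of 215 in DMSO 1, and DMSO 2 held 3 in all. For Ifitm3 a single cell gave 210 of 223 UMIs in DMSO 1. In the library with the lowest ratio, type A exceeded type B by 0.22 in log2 for Gdf15 and 0.18 for Ifitm3. Adra1a and Calcr, receptors for noradrenaline and calcitonin, averaged 157 and 162 CPM in type A and 1.62 and 1.63 CPM in type B. The leading type B genes were Slc26a4, Hmx2, Insrr, Thsd7a, Nbea, Igfbp5, 4930469K13Rik, Lsamp, Ank, Syt7, Tldc2, Cacna1e, Myo5a, Astn2 and Soga1. Nbea, a membrane trafficking protein, averaged 2096 CPM in type B and 43.3 CPM in type A, and Igfbp5, an insulin-like growth factor binding protein, 610 and 9.34 CPM.

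The type A and untyped sums also carried transcripts of principal cells. The 6 principal cell markers added up to 4826, 4113, 5738 and 193 CPM in type A and to 609, 267, 354 and 946 CPM in type B of BPTES 1, BPTES 2, DMSO 1 and DMSO 2. In the untyped cells of these libraries they added up to 6925, 8006, 15.2 and 1212 CPM. In type A, Aqp2, the vasopressin-regulated water channel, stood at 2324, 1248, 2042 and 13.2 CPM. In each of the 3 libraries with a high value, a single type A cell held 1022, 468 or 743 of the Aqp2 UMIs. Almost all Aqp2 of these type A sums thus came from 3 cells.

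The 60 untyped cells were mixed. The following counts overlap, so a cell can be in more than 1 of them. Shallow cells, with under 2000 UMIs, numbered 15. Hmx2 without Slc4a9 was found in 19 cells, and Slc4a9 together with Kit in 17, of which 16 were in DMSO 2. In 9 untyped cells Aqp2 exceeded Atp6v1g3, as in principal cells. Fibroblast and mural markers summed to 469 CPM in the untyped cells of DMSO 2, with 6 of 7 genes detected, and to 0 in the other libraries. Median depth of untyped cells was 9825.5 UMIs, against 30125.5 in type A and 20061 in type B, and in the shallow cells Slc4a1 or Slc26a4 may not have been detectable.

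Against other epithelia the pump genes set the cells apart, again without a test. Atp6v1g3 averaged 3578 CPM in intercalated cells, 6.63 in principal cells, 6.61 in proximal tubule, 0.66 in endothelium and 0.44 in the distal convoluted tubule. Foxi1 averaged 418 CPM in intercalated and 1.81 CPM in principal cells. Atp6v1b1, which the rule did not use, averaged 900 CPM (883 to 926), then 217 CPM in principal cells, 132 in distal convoluted tubule, 108 in thick ascending limb and 3.48 CPM in proximal tubule. Rhcg had no such gap, with 603 CPM in intercalated and 764 CPM in principal cells and overlapping libraries (460 to 809 and 594 to 862).

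**Figure D3:**
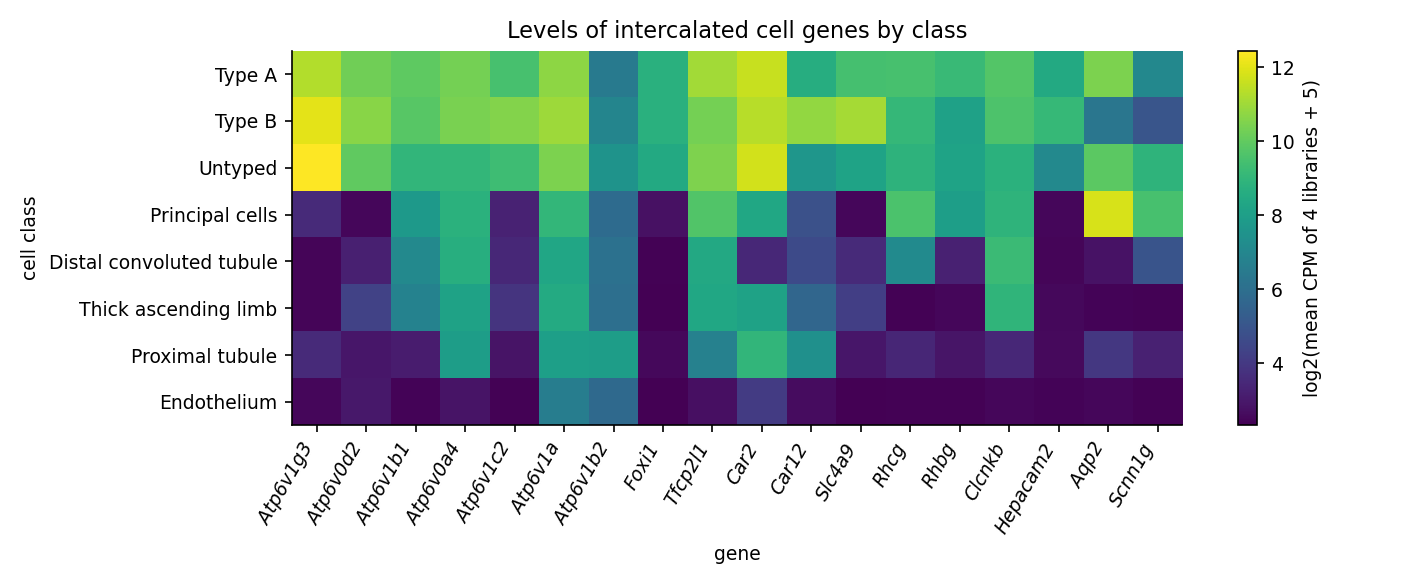
Mean level over the 4 libraries, as log2(CPM + 5), of pump, transport and regulator genes (columns) in type A, type B and untyped intercalated cells and in other classes (rows). Atp6v1g3, Atp6v0d2, Atp6v1c2 and Foxi1 are high in the intercalated rows and near the floor elsewhere, whereas Atp6v1b1 and Atp6v0a4 are also seen in other tubule rows.

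The genes whose levels ran most like Atp6v1g3 over 32 points (8 classes in 4 libraries) were Foxi1 (Pearson r = 0.990 of log2 CPM + 5), Pkib (0.981), Ociad2 (0.977), Atp6v1c2 (0.974) and Stap1 (0.971). The points share libraries and the class contrast that the rule set, so the coefficients are descriptions. Compared with principal cells, the 15 genes with the largest ratio in intercalated cells included Slc26a4, Atp6v1g3, Atp6v0d2, Slc4a9, Adgrf5, Atp6v1c2, Aqp6, Rtl4, Kit, Hepacam2, Hmx2, Insrr, Foxi1, Slc4a1 and Eps8. Hepacam2, an adhesion molecule, averaged 422 CPM in intercalated and 0.68 CPM in principal cells. Principal cells led for Egfem1, Trpv5, Kl, Sdk1, Rbfox1, Tshz2, Zfpm2, Aqp4, Fmo2, Slc8a1, Cacnb4, Kcnc2, Sema5a, Gramd1b and Kcnj1.

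The share of intercalated cells did not differ between treatments by more than the spread between libraries. They made up 0.813%, 0.528%, 0.615% and 1.14% of Ptprc-negative barcodes in BPTES 1, BPTES 2, DMSO 1 and DMSO 2 (exact Clopper-Pearson 95% intervals 0.624 to 1.04, 0.368 to 0.733, 0.449 to 0.822 and 0.911 to 1.41, counting error only). The mean was 0.670% ± 0.202 (SD, n = 2) with BPTES and 0.877% ± 0.370 (SD, n = 2) with DMSO, a log2 ratio of -0.38 (SE 0.42) with an adjusted p of 0.889 by edgeR. The exact two-sided permutation p was 0.667, where 0.333 is the smallest that 2 against 2 libraries allow. DMSO 2 had the highest share, and without it the log2 ratio was 0.13. Type A made up 28.3%, 37.0%, 31.4% and 71.2% of typed cells (95% intervals 16.0 to 43.5, 19.4 to 57.6, 16.9 to 49.3 and 57.9 to 82.2), a difference of -18.7 percentage points (BPTES minus DMSO) with an exact permutation p of 0.667. DMSO 2 alone was above the other 3 libraries, and without it the difference was 1.22 points.

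Among 9774 genes tested on the summed cells, 31 differed between BPTES and DMSO at an adjusted p under 0.05 (0.317% of genes tested), 26 higher (0.266%) and 5 lower (0.0512%) with BPTES. Sums were compared by the quasi-likelihood test of edgeR and adjusted by Benjamini-Hochberg. Levels of all intercalated cells below are CPM after TMM scaling, except those of Cp and those called raw. Levels by type or in other classes, and marker sums, are CPM without that scaling. The higher genes included Car15, Slc16a5 and Fabp3, found more in type B than in type A cells, the plasma cell transcripts Igha, Igkc and Jchain, and the principal cell markers Scnn1g and Hsd11b2. At an unadjusted p under 0.05 there were 564 genes, and the median log2 fold change of all genes was -0.01.

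The first group was Car15, Slc16a5 and Fabp3. Car15 (chr16:17835276-17838364, minus strand, GRCm38), a membrane-anchored carbonic anhydrase, measured 99.6 and 76.8 CPM with BPTES and 30.3 and 17.2 CPM with DMSO. Its log2 fold change was 1.98 (SE 0.29, edgeR adjusted p = 0.0056). In type B cells it stood at 155 and 163 CPM with BPTES and at 39.97 and 38.0 CPM with DMSO, whereas in type A cells it lay between 10.6 and 16.5 CPM in all 4 libraries. Slc16a5 (chr11:115462474-115474398, plus strand), a monocarboxylate transporter family member, measured 77.0 and 96.0 CPM with BPTES and 25.7 and 24.5 CPM with DMSO. The log2 fold change was 1.78 (SE 0.26, edgeR adjusted p = 0.0035), and type B cells held 114, 191, 29.6 and 68.7 CPM against 4.54 to 19.2 CPM in type A.

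Fabp3 (chr4:130308595-130315463, plus strand), a fatty acid carrier of the cytosol, measured 81.0 and 73.2 CPM with BPTES and 30.3 and 20.2 CPM with DMSO, with a log2 fold change of 1.66 (SE 0.27, edgeR adjusted p = 0.0087). Type B cells held 116, 131, 13.3 and 14.5 CPM and type A cells at most 10.98 CPM. With DMSO both types thus lay below the level of all cells, so the untyped cells had a higher Fabp3 level there than either type. For each of these genes both BPTES libraries lay above both DMSO libraries, which the rule for naming Car15 and Slc16a5 required. Over all 9774 genes tested, the groups did not overlap, in either direction, for 3325. Car15 was seen in 28 of 62, 11 of 35, 7 of 45 and 17 of 85 cells. A single cell gave up to 33.3% of the Car15 UMIs of a library (in DMSO 1), up to 31.6% of the Slc16a5 UMIs (in DMSO 2) and 42.6% and 48.9% of the Fabp3 UMIs in BPTES 2 and DMSO 2. None of the 3 was called without BPTES 2 (adjusted p = 0.0627 for Car15, 0.127 for Slc16a5 and 0.141 for Fabp3 by edgeR), with log2 fold changes of 2.15, 1.64 and 1.74. At a limit of 25% mitochondrial UMIs Car15 (1.76, adjusted p = 0.299) and Fabp3 (1.51, adjusted p = 0.0565 by edgeR) were not called, and Slc16a5 was (1.61). A further choice, made after seeing the data, took equal numbers of type A and type B cells. Here and below, these came from a single random draw, and the untyped cells were left out. The log2 fold changes were then 1.69 for Car15, 1.09 for Slc16a5 and 1.99 for Fabp3, with edgeR adjusted p of 0.0497, 0.575 and 0.109.

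Whether type B responded more than type A was tested by an interaction. It gave 0 calls over 8041 genes (0%), while 390 had an unadjusted p under 0.05. The difference of log2 fold changes, type B minus type A, was 2.31 (SE 0.64) for Car15, 2.05 (SE 0.78) for Slc16a5 and 5.10 (SE 0.97) for Fabp3, with edgeR adjusted p of 0.410, 0.907 and 0.132. The type A levels of Fabp3 were low, as given above, so its difference rests on few UMIs in that type. The 10 genes with the lowest p, none called, were Plcl1, Hbegf, Fabp3, Bcl6, Col26a1, Nupr1, Anpep, Umod, Arid5b and Lncpint. Plcl1, a phospholipase C relative without known catalytic activity, came nearest with a difference of -2.24 (SE 0.36, edgeR adjusted p = 0.0535). It measured 103, 73.5, 283 and 260 CPM in type B and 195, 233, 145 and 114 CPM in type A of BPTES 1, BPTES 2, DMSO 1 and DMSO 2, lower with BPTES in type B and higher in type A. Over all intercalated cells, those with more Aqp2 than Atp6v1g3 held 182 of 343, 102 of 170, 39 of 248 and 37 of 392 Plcl1 UMIs in these libraries. Without those cells the difference was -1.62 (SE 0.72, edgeR adjusted p = 0.924). Plcl1 did pass with RLE scaling (adjusted p = 0.0431), at 25% mitochondrial UMIs (0.0385), with no filter on low counts (1.0e-05) and without DMSO 1 (3.0e-05) or DMSO 2 (0.0081 by edgeR), with differences of -2.09 to -2.38. The Fabp3 difference passed with no filter on low counts (5.13, adjusted p = 0.00017), without cells holding 2 or more UMIs of Aqp2 or Slc12a3 (4.20, adjusted p = 0.029) and without DMSO 1 (4.92, adjusted p = 0.00081) or DMSO 2 (5.35, adjusted p = 0.0289 by edgeR). Without BPTES 2 it was 8.85, with an edgeR adjusted p of 1.

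The second group was Igha, Igkc and Jchain, the transcripts of antibody chains made by plasma cells. Of the plasma cell markers 3 of 4 tested were called, against 0.317% of all genes tested. Igha measured 86.3 and 161 CPM with BPTES and 8.27 and 4.29 CPM with DMSO, a log2 fold change of 4.39 (SE 0.42, edgeR adjusted p = 0.0016). Igkc measured 231 and 302 CPM with BPTES and 47.8 and 52.8 CPM with DMSO, a log2 fold change of 2.39 (SE 0.22). Jchain measured 23.2 and 34.8 CPM with BPTES and 4.60 and 4.72 CPM with DMSO, a log2 fold change of 2.58 (SE 0.45). The call of Jchain was lost at about the same fold with DESeq2 (2.63, adjusted p = 0.056), at 25% mitochondrial UMIs (2.55, edgeR adjusted p = 0.0526) and without cells holding 2 or more UMIs of Aqp2 or Slc12a3 (2.59, edgeR adjusted p = 0.0982). It was also lost with equal numbers of both types (2.28, adjusted p = 0.283) and without BPTES 2 (2.31, adjusted p = 0.475 by edgeR).

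Igkc was as high in cells that do not make antibody. It measured 263, 335, 56.0 and 57.2 CPM in principal cells, 255, 500, 61.4 and 59.4 in proximal tubule, and 380, 514, 88.4 and 69.1 in endothelium of BPTES 1, BPTES 2, DMSO 1 and DMSO 2. Ptprc-positive barcodes held 38962, 55962, 5152 and 7079 CPM. After thinning, 28.8% of intercalated, 33.0% of proximal tubule and 32.7% of endothelial cells had an Igkc UMI (79.3%, 84.4% and 74.2% unthinned). These shares pool the BPTES and DMSO libraries, and the source of the Igkc UMIs in intercalated cells was not tested. The difference from principal cells in the treatment effect was -0.02 for Igkc (SE 0.26) and -0.14 for Igha (SE 0.46), both with an adjusted p of 1 by edgeR. Leukocyte markers summed to 38.1 to 62.4 CPM in intercalated cells, with Ptprc at 0 by the rule.

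Of the principal cell markers 2 of 6 tested were called, Scnn1g and Hsd11b2, against 0.317% of all genes tested (median log2 fold change of the list 1.34). The remaining higher genes were not among these 6 markers, although Kcnj1 and Kl are among the genes named above for which principal cells led, and they are given as a group only by the direction of their call. Scnn1g, the gamma subunit of the epithelial sodium channel, measured 166 and 210 CPM with BPTES and 49.6 and 45.04 CPM with DMSO. Its log2 fold change was 1.99 (SE 0.22, edgeR adjusted p = 0.00035). The potassium channel genes Kcnj10, Kcnj1 and Kcnj16 had log2 fold changes of 2.27, 1.79 and 1.79. Sostdc1, a secreted antagonist of bone morphogenetic protein and Wnt signals, had 2.07 and Kitl, the ligand of Kit, 1.75. Hsd11b2, which inactivates glucocorticoid in aldosterone target cells, measured 644 and 799 CPM with BPTES and 298 and 195 CPM with DMSO (log2 fold change 1.56). Its call was lost without predicted doublets (1.80, adjusted p = 0.379), with a selecting sum of at least 6 (1.43, adjusted p = 0.852), with equal numbers of both types (0.71, adjusted p = 0.949) and without BPTES 2 (1.41, adjusted p = 0.429 by edgeR). The other 13 genes called higher, from 1.14 (Pde4d) to 2.75 (Col26a1), were Nuak2, Rnf186, Tmem178, Kl, Usp2, Cdk14, Tbck, Cdo1, Ndrg1, Pgam2 and Tfap2b beside these.

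Some of these transcripts sat mostly in few cells. In 13 cells (7, 3, 1 and 2 in BPTES 1, BPTES 2, DMSO 1 and DMSO 2) Aqp2 exceeded Atp6v1g3, and these cells gave 15.3%, 23.2%, 8.90% and 3.22% of the summed UMIs. They held 83.0%, 98.6%, 89.2% and 45.6% of the Hsd11b2 UMIs, and 88.0%, 95.4%, 75.9% and 37.1% of the Scnn1g UMIs. They held 15.1%, 41.2%, 3.13% and 7.46% of the Usp2 UMIs. Of the Tbck UMIs they held 60.8%, 68.8%, 4.04% and 20.2%. Of the 13 cells, 9 were untyped, 3 type A and 1 type B, and none was marked by the doublet caller. A further cell of DMSO 2 that the caller did mark, a type B cell of 96251 UMIs, held 183 of the 454 Hsd11b2 UMIs of that library. The deepest had 130929 UMIs, with 153 of Atp6v1g3, 152 of Aqp6 and 468 of Aqp2.

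Without these 13 cells, a choice made after seeing the data, 7 of 9403 genes were called: Igkc, Igha, Jchain, Car15, Slc16a5, Fabp3 and Pde1c. The log2 fold change of Scnn1g became -0.20 (SE 0.44), that of Kcnj1 0.31 (SE 0.68), of Kcnj10 0.71 (SE 0.60), of Kcnj16 0.55 (SE 0.50) and of Hsd11b2 0.08 (SE 1.32), and none was called. Car15 then had 2.42 (SE 0.29, edgeR adjusted p = 0.00029), Slc16a5 2.03 (SE 0.28) and Fabp3 1.96 (SE 0.28). Usp2 was 1.28 (SE 0.27), against 1.46 with all cells, and was not called (edgeR adjusted p = 0.121). Sostdc1 was 1.40 (SE 0.46) with an edgeR adjusted p of 0.742. Without BPTES 2 the calls of Scnn1g (1.83), Kcnj1 (1.99), Kcnj10 (2.41), Kcnj16 (1.94), Sostdc1 (2.32) and Kitl (1.90) were lost at edgeR adjusted p from 0.0545 to 0.125. Of the principal cell markers 0 of 5 tested were called without the 13 cells, with a median of 0.08. These markers include Aqp2, on which the 13 cells were chosen, so lower values of this list follow in part from that choice.

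**Figure D4:**
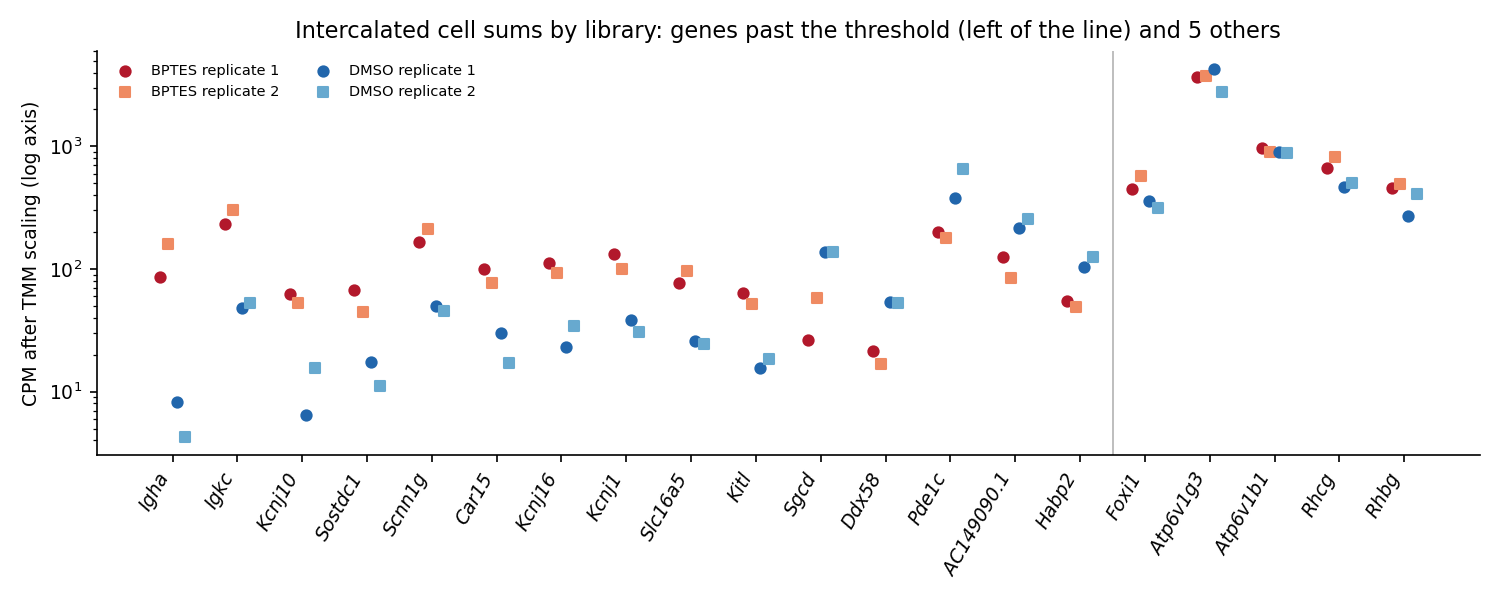
Level (CPM after TMM scaling, log axis) of 15 called genes, left of the line, and of 5 reference genes, right of it, with 1 point per library (reds BPTES, blues DMSO). The BPTES and DMSO points are apart for every called gene shown, which the rule for naming them required. Among the reference genes, none of them called, they are also apart for Foxi1, Rhcg and Rhbg and overlap for Atp6v1g3 and Atp6v1b1.

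**Figure D5:**
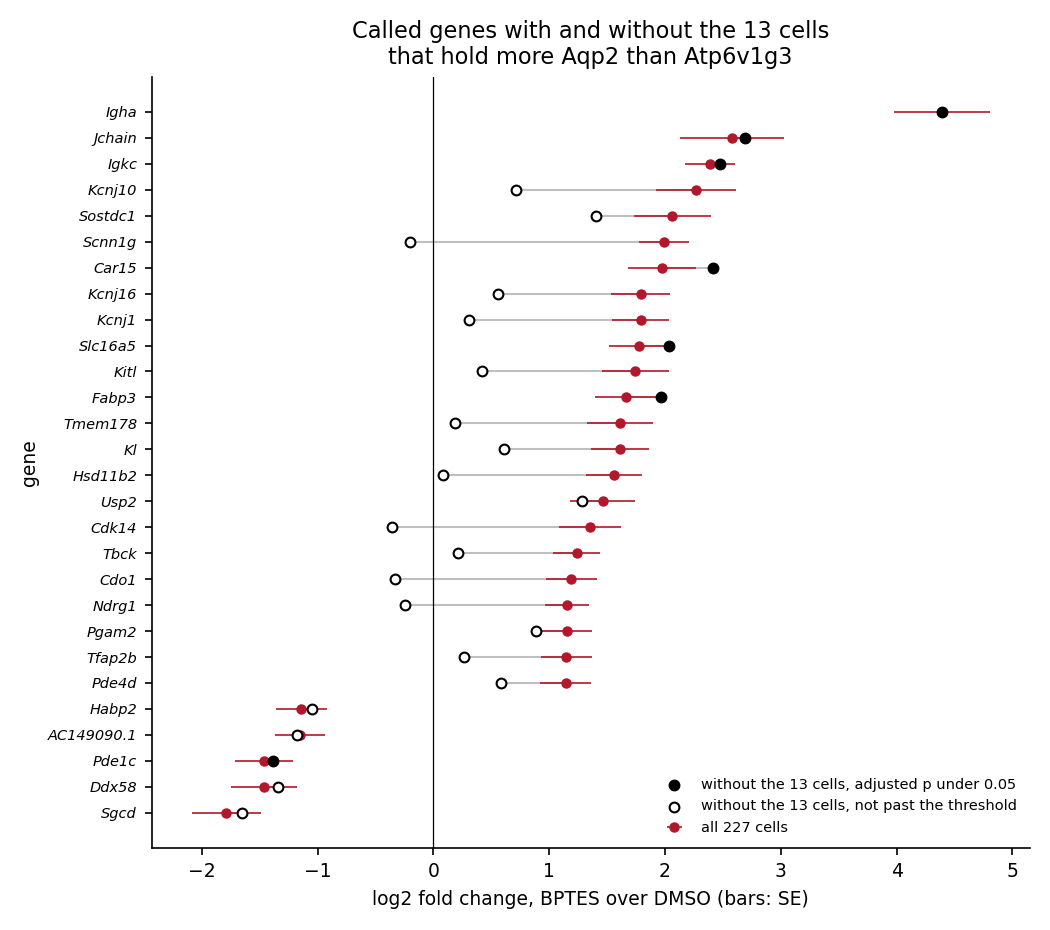
Log2 fold change (BPTES over DMSO) of 28 of the 31 called genes with all 227 cells (red, bars are SE) and without the 13 cells in which Aqp2 exceeded Atp6v1g3 (black filled where the adjusted p stayed under 0.05, open otherwise). Filled points are Igha, Jchain, Igkc, Car15, Slc16a5, Fabp3 and Pde1c, and Scnn1g lies below 0.

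The 5 genes lower with BPTES were Sgcd, Ddx58, Pde1c, AC149090.1 and Habp2. Pde1c (chr6:56069804-56569103, minus strand), a calmodulin-dependent phosphodiesterase, measured 199 and 179 CPM with BPTES and 381 and 658 CPM with DMSO. Its log2 fold change was -1.46 (SE 0.25, edgeR adjusted p = 0.0224). Pde1c was lower with BPTES in both types, at 427, 329, 711 and 678 CPM in type A and 54.1, 68.1, 224 and 119 CPM in type B of BPTES 1, BPTES 2, DMSO 1 and DMSO 2. Its call was lost with equal numbers of both types, where the log2 fold change was -0.81 (edgeR adjusted p = 0.335). It was also lost at about the same fold without BPTES 2 (-1.37, adjusted p = 0.838), without BPTES 1 (-1.53, adjusted p = 0.136), with a selecting sum of at least 6 (-1.40, adjusted p = 0.123) and without cells holding 2 or more UMIs of Aqp2 or Slc12a3 (-1.57, adjusted p = 0.0521 by edgeR).

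Sgcd, a sarcoglycan, measured 26.6 and 57.6 CPM with BPTES and 138 and 139 CPM with DMSO (log2 fold change -1.79, edgeR adjusted p = 0.0286). In DMSO 1, 58.7% of its UMIs came from a single cell. Habp2, a secreted serine protease, measured 55.1 and 49.2 CPM with BPTES and 104 and 126 CPM with DMSO (-1.14). Ddx58, the RNA sensor RIG-I, measured 21.3 and 16.8 CPM with BPTES and 54.2 and 53.2 CPM with DMSO (-1.46), and AC149090.1 had -1.15. In DMSO 1 a single cell, with more Aqp2 than Atp6v1g3, gave 35 of the 59 Ddx58 UMIs (59.3%). Under the limit of 25% mitochondrial UMIs none of these 5 was called, with log2 fold changes of -1.54 for Sgcd, -1.44 for Ddx58, -1.37 for Pde1c, -1.23 for Habp2 and -1.08 for AC149090.1 and edgeR adjusted p from 0.0526 to 0.161. The calls of Sgcd (-1.73, -1.71 and -1.66), Ddx58 (-1.50, -1.42 and -1.34) and Habp2 (-1.11, -1.04 and -1.05) were also lost with a selecting sum of at least 6, without cells holding 2 or more UMIs of Aqp2 or Slc12a3 and without the 13 cells, at edgeR adjusted p from 0.0957 to 0.632. AC149090.1 was not called in any of these settings either.

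The acid-base machinery itself gave 1 call, Car15. Over all genes tested 0.317% were called, so 0 calls in a short list, here and in the lists below, is near that share. None of the 5 kidney proton pump isoforms was called, with log2 fold changes of 0.04 to 0.18 and a median of 0.09 against -0.01 for all genes. Atp6v1g3 and Atp6v0d2 are among these 5 and were used to select the cells, so their values are a description. Atp6v1b1 measured 970, 893, 897 and 884 CPM in BPTES 1, BPTES 2, DMSO 1 and DMSO 2 (log2 fold change 0.07, SE 0.22). Atp6v1g3 measured 3692, 3778, 4261 and 2780 CPM (log2 fold change 0.09). Among the widely expressed pump subunits 0 of 16 were called (median 0.12), and among bicarbonate, chloride and related transporters 0 of 17 (median 0.08). In the latter list Slc26a4 measured 4109, 3763, 3903 and 1037 CPM, low only in DMSO 2, where type A cells prevailed, and Slc4a1 312, 457, 243 and 334 CPM. Atp4a, the gastric-type proton-potassium pump, had 0.90 (SE 0.27, edgeR adjusted p = 0.433).

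Of 3 carbonic anhydrase genes tested, Car15 rose and the abundant Car2 and Car12 did not pass (log2 fold changes -0.07 and -0.14). Both ammonia channels had higher values with BPTES but neither passed. Rhcg measured 661 and 815 CPM with BPTES and 468 and 499 CPM with DMSO, a difference of 0.61 in log2 (SE 0.22, edgeR adjusted p = 0.650). Rhbg measured 460 and 496 CPM with BPTES and 272 and 408 CPM with DMSO (0.48, SE 0.22, edgeR adjusted p = 0.843).

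Identity genes gave no call. None of 8 type A markers was called (median log2 fold change -0.59) and none of 7 type B markers (0.35), beside the type A excess of DMSO 2. Kit measured 321, 354, 317 and 702 CPM and Dmrt2 78.4, 115, 103 and 236 CPM, both highest in DMSO 2. Of 11 fate and Notch genes none was called. Foxi1, whose UMIs helped to select the cells, measured 448 and 576 CPM with BPTES and 356 and 315 CPM with DMSO (log2 fold change 0.61), given as a description. Notch2 had 1.03 (SE 0.47), at levels between 7.35 and 21.9 CPM.

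Of 13 sensing and hormone receptor genes, Hsd11b2 was the 1 called, with most of its UMIs in the 13 cells in 3 of 4 libraries. The vasopressin receptor gene Avpr2 measured 55.1 and 40.8 CPM with BPTES and 24.8 and 9.01 CPM with DMSO, 1.67 in log2 (SE 0.42, edgeR adjusted p = 0.255), and too little was left to test it without the 13 cells. P2ry14, a receptor for UDP-glucose on type A cells, had -0.82 (SE 0.31, edgeR adjusted p = 0.734). Innate defence genes gave 0 of 7, with Lcn2 at 29.2, 2.40, 191 and 5.15 CPM. The high value of DMSO 1 came from a single cell, with more Aqp2 than Atp6v1g3, which held 207 of the 208 UMIs.

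Genes of glutamine and glutamate metabolism gave no call. Of 26 listed genes 14 were tested and 0 called, near the share of 0.317% over all genes tested, with a median log2 fold change of 0.11. Such a count cannot tell whether the list as a whole changed. Glud1, glutamate dehydrogenase, had -0.10 (SE 0.19). Oat, ornithine aminotransferase, measured 199 and 156 CPM with BPTES and 141 and 99.95 CPM with DMSO (0.59, SE 0.22, edgeR adjusted p = 0.683), and Slc3a2, the heavy chain of amino acid exchangers, had 0.55 (SE 0.23, edgeR adjusted p = 0.780). Amino acid stress genes gave 0 of 11 (median -0.09).

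Respiratory chain genes gave no call. Of those from the nuclear genome 26 of 26 tested had positive log2 fold changes, from 0.05 to 0.50 with a median of 0.19. Of those from the mitochondrial genome 12 of 13 did, from -0.39 to 0.32 with a median of 0.22. Over all genes 4752 of 9774 were positive, and whether either list differs from them was not tested. Median mitochondrial shares of the cells were 12.6%, 8.26%, 8.0% and 9.63%, and their part in these values was not tested. Immediate early genes (0 of 19), senescence and p53 targets (0 of 10) and tubular injury genes (0 of 7) gave no call.

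Interferon and MHC genes also gave 0 of 13, with a median of -0.62 and 12 of 13 values negative. The raw levels of Isg15 were 1.90, 0, 221 and 3.07 CPM and those of Ifit3 2.54, 0, 132 and 0.44 CPM. In DMSO 1 nearly all came from 1 type A cell of 98421 UMIs with 244 UMIs of Isg15, 95 of Ifit1 and 145 of Ifit3. Over all libraries 13 of 227 cells held any of these transcripts. That cell was also among the 13 with more Aqp2 (743) than Atp6v1g3 (53). Without the 13 cells 12 genes of this list were tested, with a median of -0.38 and 3 positive values, and 0 were called.

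Finally, the response was compared with that of the 210 principal cells of the same libraries. Over 10666 genes this interaction gave 0 calls (0%), while 411 had an unadjusted p under 0.05. The 10 lowest p, none called, belonged to Cp, Frmpd4, Kcnj16, Slc12a3, Fam13a, Cdk14, Kcnj1, Krt18, Ctnnd2 and Ociad2. For Slc12a3 a single cell gave 98 of the 103 intercalated UMIs in DMSO 2 (95.1%). Cp, the copper-carrying ferroxidase ceruloplasmin, measured 31.7, 19.1, 70.5 and 68.0 CPM in intercalated and 99.8, 67.9, 29.4 and 25.1 CPM in principal cells, a difference of log2 fold changes of -3.04 (SE 0.32, edgeR adjusted p = 0.0944). Single cells gave 62 of the 78 intercalated Cp UMIs in DMSO 1 (79.5%) and 65 of 155 in DMSO 2 (41.9%). Cp did pass with no filter on low counts (adjusted p = 0.00013), with a selecting sum of at least 6 (0.0383) and without DMSO 1 (0.00049) or DMSO 2 (0.0488 by edgeR). For Car15 the difference was 1.75 (SE 1.51), for Slc16a5 1.61 (SE 0.42), for Fabp3 0.79 (SE 0.47) and for Pde1c -0.88 (SE 0.27), each with an edgeR adjusted p of 1. Car15 levels in principal cells were 10.9, 69.1, 15.4 and 34.7 CPM. Markers of other cells in the intercalated sums were highest for principal cells, at 2637, 2867, 2108 and 605 CPM over 6 genes in BPTES 1, BPTES 2, DMSO 1 and DMSO 2. They were low for endothelium (10.1 to 19.7 CPM over 7 genes) and podocytes (at most 1.32 CPM), and stood at 185 to 237 CPM for proximal tubule, 456 to 709 for distal convoluted tubule, 61.9 to 135 for thick ascending limb and 21.5 to 135 CPM for fibroblast and mural genes. Their part in the treatment values was not tested.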

How the data were processed

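Single-cell 3′ RNA libraries (10x Genomics GEM-X) were analysed from the deposited UMI counts per gene and barcode. The authors made these counts with Cell Ranger 8.0.1 on build mm10, per the submitters' processing notes; the annotation and further settings were not given in the sources used here. From 76278 barcodes, 50605 passed the limits on UMIs, genes and mitochondrial share, and the rule for intercalated cells was applied to raw counts, as were marker rules for the other classes. The cells, gene lists and comparisons were chosen with earlier results of these data known.

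Counts were summed per library and class and tested with edgeR 4.0.16 in R 4.3.3 (glmQLFit robust, glmQLFTest, TMM, filterByExpr, Benjamini-Hochberg over all genes tested, threshold 0.05), since cells are not replicates. Type and class interactions had the library as a block. DESeq2 1.42.0 was an alternative, Scrublet in scanpy 1.11.5 scored doublets at a rate set by the number of barcodes, and other scalings, filters, cell limits and each library left out were tried. The fits were tested on simulated data. Contrasts that follow from the rule got no test. A 3′ count does not compare levels between genes. Named are called genes with the largest change among those whose mean log2 CPM reaches 5 and whose groups do not overlap (up to 10 each way), or the 10 lowest p where fewer than 5 pass, and list members that were called, abundant or under an unadjusted p of 0.05. Ratios between classes used a pseudocount of 5 CPM. Digestion and sorting come before counting, so shares describe recovered cells. Sequences were taken from the RefSeq promoter table for GRCm38.p6 and gene positions from GENCODE. Not every gene measured is reported here.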

Additional observations from a re-analysis of the deposited data

How the results depend on the processing

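The count of 31 called genes became 155 with no filter on low counts (51.0% higher, against 83.9% in the reported fit), 55 with the replicate number as a block, 21 with DESeq2 (18 shared with the 31), 17 at the limit of 25% mitochondrial UMIs, 10 with a selecting sum of at least 6, 5 without cells holding 2 or more UMIs of Aqp2 or Slc12a3, 7 without cells with Aqp2 above Atp6v1g3 and 7 with equal numbers of type A and type B cells. The last of these settings also left out the untyped cells. Left-out libraries gave 3 (without BPTES 2) to 228 calls (without DMSO 1, 52.2% higher), with 40 without BPTES 1 and 82 without DMSO 2 (50.0% higher). Igha and Igkc were called under every alternative run for this comparison. The type by treatment interaction, 0 in the reported fit, gave 1 call with RLE scaling, 49 with no filter, 1 at 25% mitochondrial UMIs, 36 without cells holding 2 or more UMIs of Aqp2 or Slc12a3, 1 without cells with Aqp2 above Atp6v1g3, and 0 to 149 with a library left out. The interaction with principal cells, also 0, gave 3 with no filter, 2 with a selecting sum of at least 6, and 0 to 127 with a library left out. The cause of these shifts was not tested.

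Directions turned without cells holding 2 or more UMIs of Aqp2 or Slc12a3 for Scnn1g (-0.40), Hsd11b2 (-0.75), Cdk14 (-0.41), Ndrg1 (-0.13) and Cdo1 (-0.21). The log2 fold change of Aqp2 was -0.39 without cells with Aqp2 above Atp6v1g3, a filter that itself removes cells by their Aqp2. With that filter directions also turned for Scnn1g (-0.20), Cdk14 (-0.36), Ndrg1 (-0.25) and Cdo1 (-0.33), and the cause was not tested. Without DMSO 2 they turned for Atp6v1g3 (-0.17, with up to 0.43 without DMSO 1), the intercalated share (0.13) and the type A share (1.22 points). In the interaction with principal cells they turned for Slc12a3 (1.46 at 25% mitochondrial UMIs), Cdk14 (-0.051) and Kcnj1 (-0.21) without cells holding Aqp2 or Slc12a3, and Cdk14 (-0.014) without cells with Aqp2 above Atp6v1g3. Left-out libraries gave log2 ratios of the share from -0.75 to 0.13 and differences in type A share from -38.5 to 1.22 points. The labels do not say whether replicate numbers pair samples, and a correlation across genes with so few libraries cannot decide it. Deviations of same-numbered libraries had r = -0.06 over 9774 genes. All 31 genes were among the 55 called with the replicate number as a block, and the share had a log2 ratio of -0.35 with it. Separate fits for type A and type B were not run, because libraries held as few as 10 and 17 of these cells and 20 were required. The 227 cells and 2 libraries per treatment limit the precision of every value.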
